A study of Mus musculus with 4 samples.

Results

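Toll-like receptors are the membrane proteins by which macrophages sense microbial products and molecules released from dying cells. The 9 genes described here, Tlr1, Tlr2, Tlr3, Tlr4, Tlr6, Tlr7, Tlr8, Tlr9 and Tlr13, were taken by symbol from the 17013 genes listed in the deposited values, and all 9 were found. Of these, Tlr1, Tlr2, Tlr4 and Tlr6 encode receptors of the cell surface, and Tlr3, Tlr7, Tlr8, Tlr9 and Tlr13 encode receptors of the endosome. Both groups were compared in macrophages grown from the bone marrow of wild-type C57BL/6 male mice, whose age is not given in the sources used here. The cells had been matured with M-CSF and were then kept on porous inserts for 24 h. Artificial necrotic bone fluid (aNBF) was added above them, a saline extract of freeze-thawed bone that carries damage-associated molecular patterns (DAMPs). Below the inserts was medium from freeze-thawed abdominal fat, either its middle layer (fat control medium, Con) or its top layer (high-fat-containing medium, Fat). There were 2 libraries of each, and both groups received aNBF and fat extract. The cells were cultured outside the animal, and the labels call their tissue bone marrow and their cell type macrophage. Whether the replicates came from separate mice is not given, and p-values then measure only the spread between these libraries.

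Surface receptors bind lipopeptides and lipopolysaccharide, and some also respond to host molecules such as HMGB1 and S100 proteins that necrotic cells release. Endosomal receptors bind nucleic acids or microbial proteins that have been taken up and broken down. All but TLR3 signal through the adaptor MyD88, TLR3 uses the adaptor TRIF, and TLR4 uses both. The study compared the media to learn how macrophages in a necrotic environment change when they take up fat, and the comparison here asked which of these sensors differed.

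Levels of one gene between libraries are given in CPM (reads scaled to a common library size), and levels of different genes in TPM, where the length of the gene is taken into account. Pairs of values are those of replicate 1 and then replicate 2. The libraries held from 33573852 to 40785872 reads on genes, and a CPM of 0.0244 to 0.0295 stood for a single read. Differences were tested with limma on log2(CPM + 0.1) over 12470 genes, and a gene was called at an adjusted p under 0.05. All 9 receptors passed the filter on low values. In Fat, 2 of the 9 were called lower and 0 higher, where 5.0% of all genes tested were called lower and 3.99% higher. At limma's unadjusted p under 0.05, 5 were lower and 0 higher, against 12.4% and 11.8% of all genes tested. At an adjusted p under 0.05, edgeR's quasi-likelihood test called 2 of the 9 lower (5.2% of all genes), its exact test 4 (7.45%) and DESeq2 3 (5.22%), and each called 0 higher. The receptors called lower were the surface receptors Tlr2 and Tlr1. Since whole cultures were sequenced, fewer cells of a kind and less RNA per cell cannot be told apart.

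Tlr2 encodes the receptor for bacterial lipopeptides, which works as a pair with TLR1 or TLR6. It was at 181 and 137 CPM in Con, and at 88.2 and 76.1 CPM in Fat. Both Fat libraries lay below both Con libraries, and the means were 158.7 ± 30.9 CPM in Con and 82.2 ± 8.61 CPM in Fat (SD, n = 2 each), 48.2% lower. The log2 fold change of Tlr2 was -0.94 with a 95% interval from -1.24 to -0.64 (limma adjusted p = 0.0076). Without Con replicate 1, the library with the most Tlr2, it was -0.74. Tlr1, whose protein with TLR2 binds triacylated lipopeptides, was at 73.9 and 65.7 CPM in Con and at 47.0 and 44.8 CPM in Fat. These values did not overlap either, and the mean of Tlr1 was 34.3% lower in Fat (log2 fold change -0.60, 95% interval -0.77 to -0.43, limma adjusted p = 0.00514). Without limma's mean-variance trend neither gene was called (limma adjusted p = 0.0975 for Tlr2 and 0.0831 for Tlr1), and with the TPM values Tlr2 was not (adjusted p = 0.0511).

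Tlr6, which encodes the other partner of TLR2, is a close copy of Tlr1 in the same gene cluster. It was at 23.0 and 23.4 CPM in Con and at 20.1 and 21.5 CPM in Fat. The Fat libraries were again the lower ones, but the log2 fold change of Tlr6 was -0.16 (95% interval -0.33 to 0.01, limma adjusted p = 0.246) and was not called. The reads of this pair are uncertain, because 28.2% of the 75-base stretches of Tlr1 transcripts and 21.0% of those of Tlr6 were found in another gene within 2 mismatches, for Tlr6 always in Tlr1. Summed over both genes, so that it makes no difference which of them took a shared read, the level was 97.0 and 89.1 CPM in Con and 67.1 and 66.3 CPM in Fat (log2 fold change -0.48, limma adjusted p = 0.00611).

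Tlr4 encodes the receptor for lipopolysaccharide. Its values were 178 and 152 CPM in Con and 137 and 116 CPM in Fat, so that the groups did not overlap. The log2 fold change of Tlr4 was -0.38 (95% interval -0.61 to -0.15), and limma's adjusted p of 0.0559 lay just outside the threshold. It passed the threshold by DESeq2 (adjusted p = 0.00646), by edgeR's exact test (0.00725) and after median ratio scaling (0.0473), but not by edgeR's quasi-likelihood test. Leaving out a single library gave log2 fold changes of Tlr4 from -0.50 to -0.26, and it was called without Con replicate 2 or Fat replicate 1.

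The DNA before the gene starts is shown for the receptors that were called and, beside them, for Tlr6 and Tlr13, which were not. RefSeq windows of 250 bases before to 50 after a start (build GRCm38.p6) were found for 7 of the 9 receptors, and Tlr4 and Tlr7 had none. The part before the start, ending before the first base of any annotated exon, is printed 5′ to 3′ on the strand of the gene. It is in lower case with motif matches in capitals.
Tlr2, chr3:83841768-83841858, minus strand: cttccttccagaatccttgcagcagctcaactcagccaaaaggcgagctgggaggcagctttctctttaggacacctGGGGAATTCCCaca
Tlr1, chr5:64933564-64933808, minus strand: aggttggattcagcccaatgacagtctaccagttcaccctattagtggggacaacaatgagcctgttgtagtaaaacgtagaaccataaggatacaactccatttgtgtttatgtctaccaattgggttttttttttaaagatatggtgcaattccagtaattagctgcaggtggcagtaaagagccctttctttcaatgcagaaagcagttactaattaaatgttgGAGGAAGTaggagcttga
Tlr6, chr5:64959167-64959416, minus strand: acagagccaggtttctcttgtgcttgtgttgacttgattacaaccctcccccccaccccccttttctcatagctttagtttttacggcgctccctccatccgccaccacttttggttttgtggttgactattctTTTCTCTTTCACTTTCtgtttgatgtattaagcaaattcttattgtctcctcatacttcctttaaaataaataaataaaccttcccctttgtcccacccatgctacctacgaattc
Tlr13, chrX:106143025-106143203, plus strand: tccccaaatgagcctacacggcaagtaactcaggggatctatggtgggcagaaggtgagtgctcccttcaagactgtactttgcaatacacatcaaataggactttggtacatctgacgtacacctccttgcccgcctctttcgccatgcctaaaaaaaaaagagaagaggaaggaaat
The capitals in Tlr2 are overlapping matches to the NF-kB consensus, whose first bases lie 173 and 172 bases before the start, counted with -1 as the base next to it. A further NF-kB match began 8 bases before the start, in the part of the window not printed. NF-kB matches were present in 8.46% of the 32851 windows searched, which left out a chromosome. The capitals in Tlr1 are a match to GAGGAAGT, the core of sites for the macrophage factor PU.1, at -23, present in 3.2% of windows. In Tlr6 they are overlapping matches to the interferon-stimulated response element (ISRE, searched as GAAA, 2 bases of any kind and GAAA) on the other strand, at -116 and -110, present in 3.44% of windows. Tlr13 held no match to these or to TTCNNNGAA (GAS, 8.3% of windows) and TGANTCA (AP-1, 7.81%), all searched on both strands. In the windows not printed, Tlr3 held an NF-kB match at -211, Tlr8 a GAS match at -106, and Tlr9 an AP-1 match at -58 and a PU.1 match at 11, and second windows of Tlr1 and Tlr6 held GAS matches. Such matches are letters in a window and not shown to be bound in these cells.

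**Figure D1:**
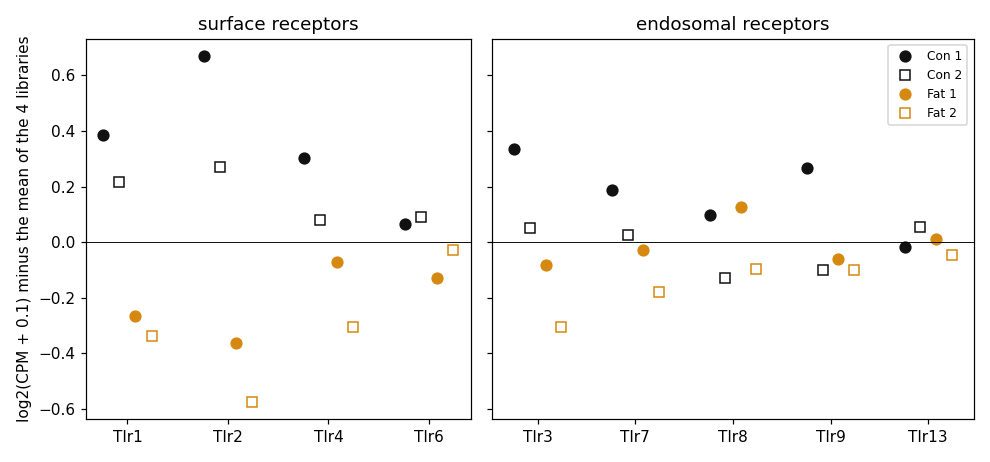
Level of each receptor in each library, as log2(CPM + 0.1) minus the mean of the 4 libraries, for surface receptors (left) and endosomal receptors (right). Filled and open symbols are replicates 1 and 2, black for Con and orange for Fat. Tlr2 spanned from -0.58 to 0.67, while all 4 libraries of Tlr13 lay between -0.05 and 0.05.

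Among the endosomal receptors, 0 of 5 were called in either direction in the limma fit described above, by edgeR's quasi-likelihood test or by DESeq2. That limma fit called 5.0% of all genes tested lower and 3.99% higher, so 0 of 5 is near those shares. At limma's unadjusted p under 0.05, 2 of the 5 were lower, Tlr3 and Tlr7, where 12.4% of all genes tested were. Tlr3 was also called by edgeR's exact test. Tlr3, the sensor of double-stranded RNA, was at 24.8 and 20.4 CPM in Con and at 18.6 and 15.9 CPM in Fat. The Fat libraries lay below the Con libraries, with a log2 fold change of -0.39 for Tlr3 (95% interval -0.66 to -0.11, limma adjusted p = 0.092). It was called without Con replicate 2 or Fat replicate 1. An exon of Gm45542, annotated on the opposite strand, overlaps 381 bases of Tlr3 exons, and whether strand was used in counting is not given in the sources used here. Tlr7, a sensor of single-stranded RNA, was at 174 and 155 CPM in Con and at 149 and 135 CPM in Fat (log2 fold change -0.21, 95% interval -0.39 to -0.03, limma adjusted p = 0.143). Its groups did not overlap, though Con replicate 2 and Fat replicate 1 lay close together.

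For the other endosomal receptors the Con and Fat values overlapped. Tlr8, the neighbour of Tlr7 on the X chromosome, was at 291 and 249 CPM in Con and at 297 and 255 CPM in Fat. The replicates of one medium differed more than the media did, and the 95% interval of the log2 fold change of Tlr8 ran from -0.20 to 0.26. Tlr13, which senses bacterial ribosomal RNA, was at 723 and 759 CPM in Con and at 737 and 708 CPM in Fat. It rested on between 24523 and 29018 reads per library, and the 95% interval of the log2 fold change of Tlr13 was the narrowest of the 9 receptors, from -0.18 to 0.11. Tlr9, the sensor of unmethylated CpG DNA, was low, with between 205 and 240 reads per library. It was at 7.08 and 5.46 CPM in Con and at 5.63 and 5.46 CPM in Fat, and the 95% interval of its log2 fold change was wider than that of Tlr13, from -0.50 to 0.18.

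**Figure D2:**
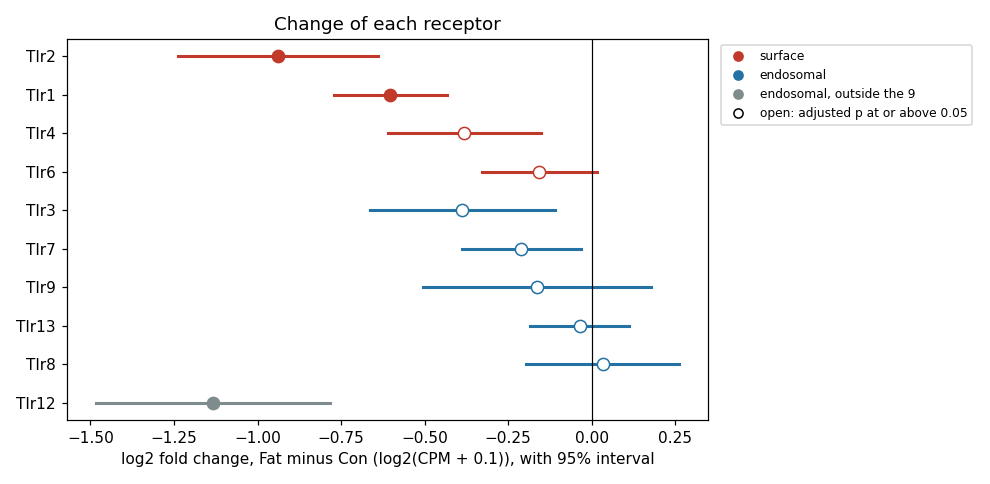
Log2 fold change of each receptor, Fat minus Con on log2(CPM + 0.1), with its 95% interval from limma. Red marks surface and blue endosomal receptors, grey marks Tlr12, and filled circles have a limma adjusted p under 0.05. Tlr2 and Tlr1 were called lower among the surface receptors and 0 of 5 among the endosomal ones, beside 5.0% of all genes tested. The grey Tlr12 was lowest at -1.13.

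Set side by side, the median log2 fold change was -0.49 for the 4 surface receptors and -0.16 for the 5 endosomal ones, beside 0.01 over all genes tested. The difference between these medians was 0.33, and from 0.28 to 0.38 when a single library was left out. It is a description without a test, since members of a family are not replicates and 2 libraries against 2 cannot give an exact permutation p below 0.333. In 4 of 4 surface and 2 of 5 endosomal receptors both Fat libraries lay below both Con libraries, which held for 26.2% of all genes tested. In 0 of 9 did both Fat libraries lie above both Con libraries, against 29.4% of all genes tested. Within the surface group the 95% intervals of Tlr2 and Tlr6 did not overlap, and their difference was not tested.

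Outside the 9, Tlr12 encodes a further endosomal receptor of the mouse, which binds profilin from parasites. Tlr12 was at 6.52 and 5.33 CPM in Con and at 2.71 and 2.56 CPM in Fat. Its means were 55.5% lower in Fat (log2 fold change -1.13, limma adjusted p = 0.00682), and its 95% interval from -1.48 to -0.78 overlapped that of Tlr2. These values rested on 221 and 200 reads in Con and on 101 and 105 in Fat, and not every alternative setting called Tlr12. With Tlr12 counted among the endosomal receptors, the difference between the medians was 0.30.

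Per length, endosomal receptors made up most of the Toll-like receptor transcripts. Tlr13 stood first in both media, at 394 and 406 TPM in Con and at 407 and 390 TPM in Fat. Tlr8 came next at 202 and 169 TPM in Con and at 209 and 179 TPM in Fat. In Con the order went on with Tlr2, Tlr4, Tlr7, Tlr1, Tlr6, Tlr3 and Tlr9, and only the neighbours Tlr4 and Tlr7 overlapped between libraries. In Fat the order went on with Tlr7, Tlr4 and Tlr2, of which Tlr4 overlapped with both its neighbours, and then Tlr1, Tlr6, Tlr3 and Tlr9. Tlr2 thus went from the third to the fifth place, from 138 and 103 TPM in Con to 68.5 and 59.0 TPM in Fat. Tlr9 was last in each, between 3.38 and 4.46 TPM.

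**Figure D3:**
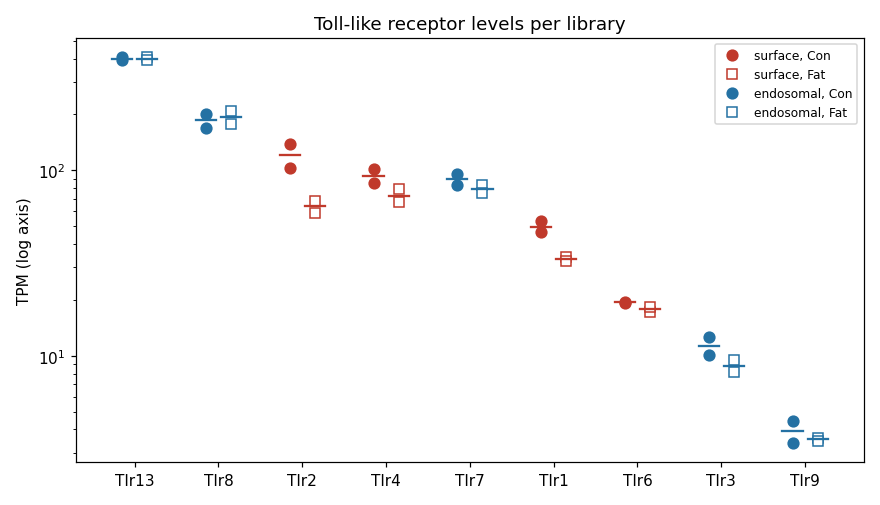
TPM of each receptor on a log axis, ordered by the Con mean. Filled circles are Con and open squares are Fat libraries, short lines are the means of 2 libraries, red marks surface and blue endosomal receptors. Tlr13 lies near 400 TPM in all 4 libraries, and the largest gap between media is that of Tlr2.

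The surface receptors held 30.6% and 27.4% of the summed TPM of the 9 receptors in Con and 21.8% and 21.2% in Fat. Their sum was 312 and 253 TPM in Con and 199 and 177 TPM in Fat, while the endosomal sum was 709 and 672 TPM in Con and 712 and 655 TPM in Fat. The endosomal values overlapped between the media and the surface values did not. Tlr2 alone held 13.6% and 11.1% of the pool in Con and 7.52% and 7.09% in Fat.

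**Figure D4:**
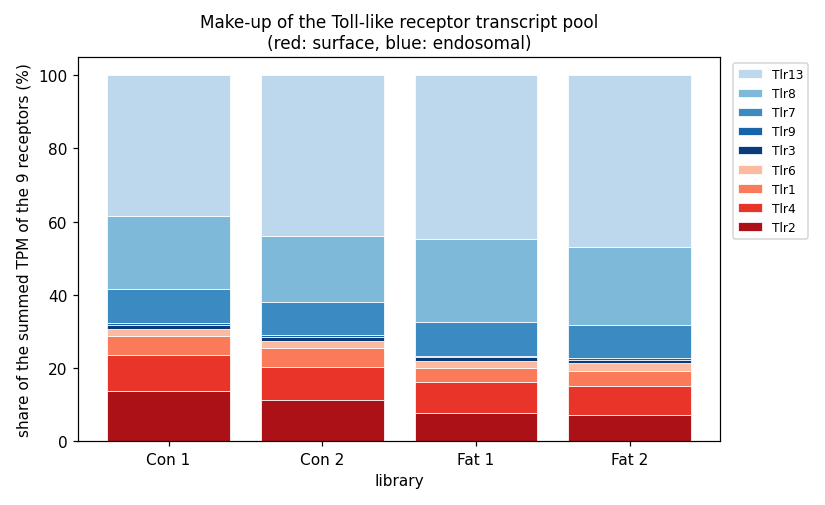
Share of each receptor in the summed TPM of the 9 receptors, 1 bar per library, with surface receptors in red below and endosomal receptors in blue above. The red part falls from 30.6% and 27.4% in the Con bars to 21.8% and 21.2% in the Fat bars.

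Because TLR2 acts in pairs, the TPM ratios of its partners to it were read in each library. Tlr1 per Tlr2 was 0.383 and 0.449 in Con and 0.498 and 0.55 in Fat. Tlr6 per Tlr2 was 0.14 and 0.188 in Con and 0.25 and 0.311 in Fat. Both ratios were higher in the Fat libraries, as follows from the fold changes given above, and neither was tested. Reads shared between Tlr1 and Tlr6 make both ratios uncertain. They describe transcripts, and the amounts of the proteins were not measured.

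Many of the 9 receptors also differed between replicates in the same sense. In 7 of 9, replicate 1 was above replicate 2 in both media, which held for 27.9% of all genes tested. In 5 of 9 (Tlr1, Tlr2, Tlr3, Tlr4 and Tlr7), Con replicate 1 was the highest library and Fat replicate 2 the lowest, with Con replicate 2 above Fat replicate 1, against 10.1% of all genes tested. No batch is named in the labels, and what the replicates of one number share was not tested.

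Beyond the receptors, 82 genes of the pathway were followed in lists by role, and 77 passed the filter on low values. Of these, limma called 15 lower in Fat and 1 higher (9 and 0 with the TPM values, 1 and 0 without the mean-variance trend), beside 5.0% and 3.99% of all genes tested. Their median log2 fold change was -0.05, beside 0.01 over all genes. Without the response genes and transcription factors, 60 were tested, and limma called 9 lower and 0 higher, with a median of -0.04. The lists were chosen with earlier results of these data known, so these counts are a description and not an independent test. Among the 7 co-receptors and ligand-binding partners, 6 were tested, and limma called 1 lower and 0 higher. That gene, Ly86, encodes MD-1, the partner of the TLR4-like receptor CD180, and fell from 177 and 157 CPM in Con to 109 and 95.1 CPM in Fat (log2 fold change -0.71, limma adjusted p = 0.00514). Ly96 encodes MD-2, the part of the TLR4 complex that holds lipopolysaccharide. Ly96 was at 18.3 and 18.4 CPM in Con and at 18.7 and 18.0 CPM in Fat, with a 95% interval of its log2 fold change from -0.17 to 0.17. Ly96 per Tlr4 in TPM was 0.656 and 0.769 in Con and 0.869 and 0.983 in Fat. Cd14, which hands lipopolysaccharide to that complex, had a log2 fold change of -0.15 (limma adjusted p = 0.199). Cd36, a scavenger receptor of fatty acids and oxidized lipoproteins that works with TLR2 and TLR4, lay the other way, at 9199 and 10370 CPM in Con and at 12638 and 12398 CPM in Fat. Its log2 fold change was 0.36 (limma adjusted p = 0.163), and edgeR's exact test and DESeq2 called it higher.

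Genes for the folding and transport of the receptors were not called. Of 9 chaperones and trafficking factors, 0 were called in either direction by limma, also at its unadjusted p under 0.05, or by either test of edgeR and DESeq2. Over all genes tested limma called 5.0% lower and 3.99% higher, so 0 of 9 at the adjusted p is near those shares. At its unadjusted p under 0.05 the shares of all genes tested were 12.4% lower and 11.8% higher. Unc93b1, the escort of endosomal receptors from the endoplasmic reticulum, was at 568 and 599 CPM in Con and at 517 and 575 CPM in Fat, and its values overlapped. Hsp90b1, which encodes the chaperone gp96 that folds most Toll-like receptors, had a log2 fold change of -0.16 (95% interval -0.33 to 0.01). Among 9 proteases and nucleases of the endolysosome, limma called 3 lower and 0 higher, and with the TPM values it called 0. Pld4, an exonuclease that trims nucleic acid ligands of these receptors, had a log2 fold change of -0.36 (limma adjusted p = 0.0368). Rnaset2a and Rnaset2b, near-identical genes of a lysosomal ribonuclease between which reads may be split, had log2 fold changes of -0.47 and -0.52 (limma adjusted p = 0.0339 and 0.0236), and DESeq2 did not call Rnaset2a. The proteases Ctsl and Ctss had log2 fold changes of 0.35 and -0.26 (limma adjusted p = 0.15 and 0.31), and edgeR's exact test and DESeq2 called Ctsl higher and Ctss lower.

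**Figure D5:**
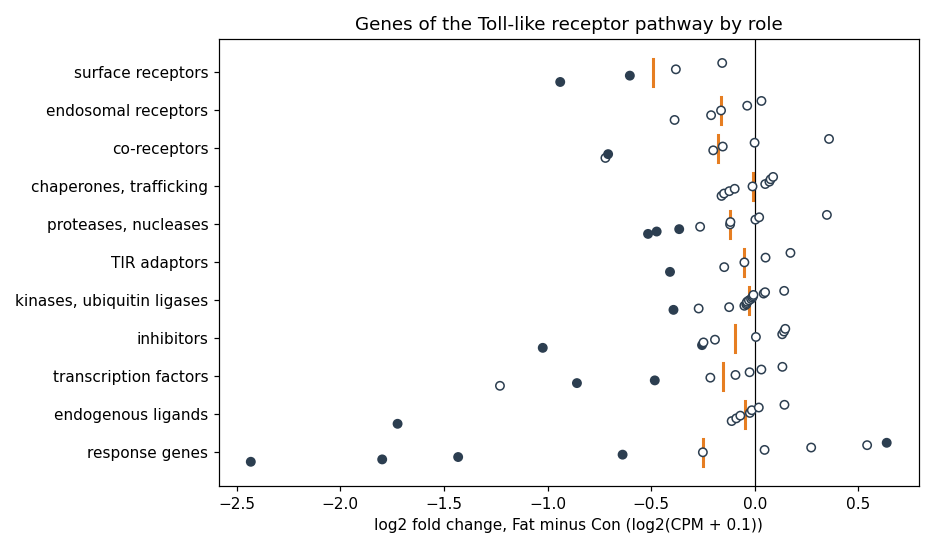
Log2 fold change, Fat minus Con, of the tested genes of each list, 1 circle per gene, filled where the limma adjusted p was under 0.05, with the list's median as an orange line. Over all genes tested, 5.0% were called lower and 3.99% higher. Chaperones and trafficking factors hold no filled circle, and the surface receptors have the lowest median, at -0.49.

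Downstream, Ticam2 was the 1 adaptor called of the 5 tested. It encodes TRAM, which links TLR4 to TRIF, and was at 52.6 and 49.6 CPM in Con and at 39.7 and 37.3 CPM in Fat (log2 fold change -0.41, limma adjusted p = 0.0128). With the TPM values Ticam2 was not called. Ticam1, the gene of TRIF, had a log2 fold change of 0.17 and Myd88 one of -0.15 (limma adjusted p = 0.289 and 0.146). Of 15 proximal kinases and ubiquitin ligases, limma called 1 lower and 0 higher, near the shares of all genes tested (5.0% lower and 3.99% higher). Ikbke, a kinase of interferon regulatory factors, had a log2 fold change of -0.39 (limma adjusted p = 0.0282) and was not called with the TPM values either. Irak4 and Traf6, needed for signalling through MyD88, had 95% intervals from -0.18 to 0.11 and from -0.18 to 0.12.

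Of 8 inhibitors of the pathway, limma called 2 lower and 0 higher, beside 5.0% and 3.99% of all genes tested. Socs1, which restrains cytokine and receptor signalling, had a log2 fold change of -1.02 (limma adjusted p = 0.017), and Tnip1, whose product binds the inhibitor A20, one of -0.25 (limma adjusted p = 0.0308). With the TPM values Socs1 was called and Tnip1 was not. Irak3, an inhibitory kinase-like protein, had a log2 fold change of -0.19 (limma adjusted p = 0.16). Among 8 transcription factors, Irf1 and Irf8 were called lower, with log2 fold changes of -0.86 and -0.48 (limma adjusted p = 0.00447 and 0.00825). Irf7, a factor of the type I interferon response, was at 112 and 72.7 CPM in Con and at 60.0 and 24.6 CPM in Fat. Its log2 fold change of -1.23 was not called by limma (adjusted p = 0.0918), by edgeR's quasi-likelihood test or by DESeq2. Only edgeR's exact test, among these tests, called Irf7. Of the 8 genes of endogenous ligands, Saa3, which encodes a serum amyloid A protein, was called lower, and the other 7, S100a8, S100a9 and Hmgb1 among them, were not. Among 9 tested response genes, Tnf, Il1b, Cxcl10 and Ccl5 were called lower and Ptgs2 higher, though Ptgs2 was not called with the TPM values.

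Markers of macrophages were high in every library and summed to 35894 and 33887 CPM in Con and to 28458 and 26920 CPM in Fat. Of the 8, Fcgr1 and Mertk were called lower in Fat, beside 5.0% of all genes tested. Neutrophil markers, 7 of 8 listed, summed to 141 and 125 CPM in Con and to 120 and 113 CPM in Fat. B cell markers summed to 23.8 and 22.8 CPM in Con and to 18.2 and 22.0 CPM in Fat, and those of plasmacytoid dendritic cells to between 6.62 and 7.62 CPM. Conventional dendritic cell markers summed to 16.1 and 12.2 CPM in Con and to 11.1 and 7.71 CPM in Fat. Clec9a held most of this sum, at 15.6 and 11.4 CPM in Con and at 10.5 and 7.29 CPM in Fat. Flt3, Xcr1 and Cd209a had at most 3 reads in any library. Ly6d held most of the plasmacytoid sum, and Siglech had 7 and 2 reads in Con and 3 and 0 in Fat. These sums thus do not show that dendritic cells were present. T and NK cell markers summed to 4.22 and 3.65 CPM in Con and to 3.0 and 2.12 CPM in Fat. Of the 7 adipocyte markers, Adipoq, Lep, Cidea and Adrb3 were at 0 in Con, and the list summed to 9 reads in both Con libraries together and to 145 in Fat. Fibroblast markers summed to between 512 and 656 CPM, and 1 of 5, Dcn, was called lower, while endothelial markers summed to between 4.66 and 7.59 CPM. The part of these cells in the receptors' differences was not tested.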

How the data were processed

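RNA from 4 cultures, 2 Con and 2 Fat, was sequenced by the authors as single reads of 75 bases, and samples were grouped by the names in their labels. The authors deposited CPM, scaled by library total and a further factor between 0.990 and 1.01, and TPM, also scaled for gene length. Their methods name edgeR, their processing notes the build GRCm39, and the aligner, counter and annotation are not given in the sources used here. CPM values were whole multiples of the smallest value of a library (100% of values, within 0.001 of the read number), which gave reads per gene. Intervals on replicate values come from limma.

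Genes that reached 0.5 CPM in 2 or more libraries were fitted with limma 3.58.1 in R 4.3.3 (trend, two-sided, Benjamini-Hochberg over all 12470 genes). Alternatives were another pseudocount (1), 2 other filters, TPM, 2 other scalings, the replicate block, no trend, edgeR 4.0.16 and DESeq2 1.42.0 on recovered reads, an unadjusted threshold, and each library left out. Counting Tlr12 as endosomal and summing Tlr1 with Tlr6 were chosen after seeing the data. The tests were tested on simulated counts. The receptors and lists were chosen with earlier results of these data known. Named are the 9 receptors, Tlr5, Tlr11 and Tlr12, called genes (at most 4 per list and direction) and 9 core partners. Markers, uncalled ligand genes, Cd36, Ctsl, Ctss, Irf7 and Gm45542 were named after their values were seen. Adgre1 was listed as Emr1. Shared stretches were searched in GENCODE vM21 with BWA 0.7.19 at steps of 5 bases.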

Additional observations from a re-analysis of the deposited data

How the results depend on the processing

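Over the alternatives run, 2 of the 9 receptors were called lower except as follows, and 0 were called higher in each. The number lower was 1 with the TPM values, 0 without the mean-variance trend, 3 with DESeq2 and after median ratio scaling, 4 with edgeR's exact test and 5 at an unadjusted p of at most 0.05, and 2 to 4 when a single library was left out (4 without Con replicate 2 or Fat replicate 1). With the replicate number as a block, 5 receptors were called lower (Tlr1, Tlr2, Tlr3, Tlr4 and Tlr7), 1278 of all genes were called higher and 1242 lower. Libraries of one number deviated together with a correlation of 0.20 across genes, but with 2 pairs and no label for what a number shares the pairing is not established. Tlr3 was also called without Con replicate 2 (limma adjusted p = 0.0224) and without Fat replicate 1 (0.0499), as was Tlr4 (0.0107 and 0.0164). Leaving out libraries in turn turned the direction of Tlr8, which ranged from -0.083 to 0.15 and was below 0 without Con replicate 2 or Fat replicate 1, and of Tlr9, which ranged from -0.35 to 0.021 and was above 0 without Con replicate 1. The cause of these changes was not tested.

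Of the pathway genes, 1 was called higher and 15 lower. These counts were 0 and 9 with the TPM values, 0 and 1 without the trend, and 5 and 23 at the unadjusted p, and 3 were higher with edgeR's exact test and with DESeq2. When a single library was left out, 0 to 2 were higher and 9 to 17 lower, with 9 without Con replicate 1. Over all genes, 498 were called higher and 624 lower, but 237 and 170 with TPM, 19 and 12 without the trend, and 1467 and 1541 at the unadjusted p. When a single library was left out, 216 to 519 were higher and 313 to 612 lower, with 216 and 313 without Fat replicate 2 and 334 lower without Con replicate 1. With TPM, 58.2% of calls were higher, against 44.4% with CPM. Each p-value rests on 2 libraries per medium, and Tlr9 on 205 to 240 reads per library.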

Other observations

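Besides Tlr12, the remaining Toll-like receptor genes of the mouse were near the limit of detection and fell under the filter on low values. Tlr5, the receptor of flagellin, had 0 and 3 reads in the Con libraries against 11 and 11 in the Fat libraries. Tlr11, which in mice pairs with TLR12, had 10 and 5 reads in Con against 12 and 6 in Fat, so that its values overlapped. No fold change is given for either gene.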
